A study of Mus musculus with 316 samples.

Results

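Arterial and venous endothelial cells of the mouse hippocampus were compared within the pos sorting gate. The members were 125 of the 316 single cells in the deposited table, 61 arterial and 64 venous, and they were selected on measured values. A pos-gate cell with at least 1000 detected genes was scored for 6 arterial genes (Gkn3, Bmx, Sema3g, Cytl1, Fbln5 and Mgp) and 6 venous genes (Nr2f2, Lrg1, Il1r1, Vwf, Ch25h and Icam1), each counted as present at 10 CPM or more, that is, at least 10 reads per 1000000 reads of that cell. A cell was arterial with at least 3 arterial genes and more arterial than venous ones, and venous with at least 2 venous genes and more venous than arterial ones. Of the 155 pos-gate cells, 145 had enough genes, and 20 of these met neither rule. The levels of the 12 genes chose the cells and carry no test here.

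All cells came from male C57BL/6 mice with no genotype or treatment named in the labels: the young were 3 months old and the aged 19 months old. Each sample pooled the hippocampi of 4 mice, which were dissociated with a commercial kit before single endothelial cells were sorted into a pos and a neg gate. What the gates stained for is not stated in the labels, although the study's title names VCAM1. The 4 pools, 2 per age, are the replicates. Arterial cells numbered 12 and 25 in young pools 1 and 2, and 6 and 18 in aged pools 1 and 2. Venous cells numbered 21, 19, 12 and 12 in the same order.

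Blood enters the brain through arteries and arterioles, passes through capillaries where most transport across the blood-brain barrier takes place, and leaves through venules and veins. Endothelial cells change along this path. Notch signalling, ephrin-B ligands and elastic matrix mark the arterial side, whereas the nuclear receptor COUP-TFII, encoded by Nr2f2, maintains venous identity, and postcapillary venules are the main site where leukocytes leave the blood. Amino acid, monocarboxylate and organic anion transporters are best known from capillary and venous cells.

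The venous limit ran through well-filled combinations, whereas few cells stood just under the arterial limit. Among arterial cells 10 held exactly 3 arterial genes, 51 held 4 or more and 35 held 5 or 6. Of the arterial cells 42 also had 1 venous gene and 11 had 2 or more, and Vwf, the clotting factor carried by large vessels, had reads in 51 of them. Of the venous cells 16 held exactly 2 venous genes and 48 held 3 or more; 44 had no arterial gene. Just outside the limits stood 9 cells with 1 venous and no arterial gene, 2 cells with 2 arterial genes and fewer venous ones, and 2 ties, beside 7 cells with no marker at all. Gkn3, a gastrokine typical of brain arteries, averaged 1480 ± 642 CPM in arterial sums, and venous cells held 1 read of it in all. Nr2f2 averaged 196 ± 36.5 CPM in venous sums, and arterial cells held 1 read of it in all (SD, n = 4 pools throughout).

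**Figure D1:**
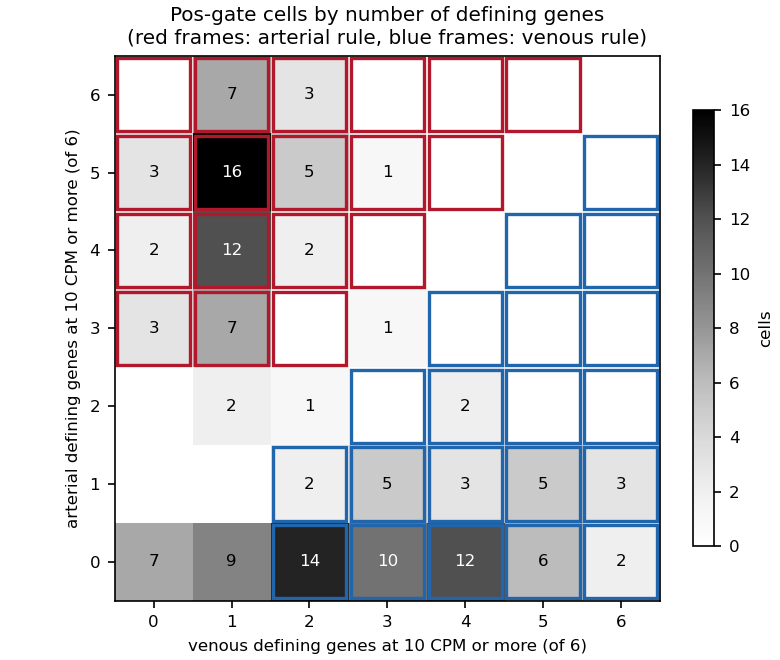
Number of pos-gate cells at each combination of arterial defining genes (vertical axis, of 6) and venous defining genes (horizontal axis, of 6) at 10 CPM or more; red frames mark combinations that meet the arterial rule and blue frames those that meet the venous rule. The most common arterial combination, 5 arterial genes and 1 venous gene, held 16 cells, and the most common venous one, 2 venous genes and no arterial gene, held 14.

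Both classes carried endothelial genes. Of the 20 genes listed for all endothelial cells 20 were in the table. Their mean log2(CPM + 1) per cell averaged 6.62 to 7.74 in arterial and 7.64 to 8.06 in venous pools. Single members differed: Kdr and Emcn were read in 5 and 12 of 61 arterial cells, against 28 and 40 of 64 venous cells. The claudin of brain endothelial tight junctions, Cldn5, averaged 6110 ± 373 CPM in arterial and 4616 ± 1073 CPM in venous sums. Lists of 10 other cell types were looked up; the erythrocyte list had 0 of 6 members in the table, and 5 lists had 3 or more. The pericyte list had 2 of 11 members in the table (Vtn and Rgs5), summing to 0 to 23.2 CPM in arterial and 9.80 to 47.6 CPM in venous pools. The microglia list had 9 of 10 members in the table, at 137 to 362 CPM in arterial and 44.6 to 141 CPM in venous pools. The fibroblast list summed to 6.45 to 180 CPM in arterial and 471 to 1263 CPM in venous pools, and the neuron list, which is Stmn2 alone, to 652 to 1230 CPM and 0 to 88.7 CPM. The smooth muscle list summed to 86.8 to 444 CPM in arterial and 44.6 to 128 CPM in venous pools. The part of other cells in the results below was not tested. In 1 arterial cell, and in 0 of 64 venous cells, the mean level of some other list was above that of the endothelial list. Leaving that cell out gave 20 called genes in the place of 21.

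Depth and detected genes were compared over pools with an exact test whose smallest possible p with 4 pools is 0.13, so it cannot reach 0.05. The median reads per cell of a pool averaged 575123 ± 169458 in arterial and 606478 ± 168163 in venous pools (exact permutation within pools, two-sided p = 0.75). Detected genes per cell averaged 2057 ± 175 and 2037 ± 145 (exact permutation within pools, two-sided p = 1). The sums held 3199398 to 15612101 reads, and 1 cell gave 28.5% of the reads of the smallest, the 6 arterial cells of aged pool 1. No pair of cells shared a barcode pair or identical values.

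To ask which other genes differ between arterial and venous cells, the reads of each class were summed within each pool, and the 8 sums were tested gene by gene with edgeR's quasi-likelihood test with the pool as a block. Of 8026 genes tested, 21 passed a Benjamini-Hochberg adjusted p of 0.05, which is 0.262%: 12 were higher in arterial cells (0.15%) and 9 in venous cells (0.112%). All 21 had the same direction in 4 of 4 pools, and in all of them the 4 arterial sums and the 4 venous sums did not overlap. Over all tested genes, 324 had arterial sums wholly above the venous ones and 314 the reverse, and 506 had an unadjusted p under 0.05. Because the classes were drawn from other genes in the same cells, these tests describe genes that go with the 12 defining ones. A sum does not tell more cells with a gene from more reads per cell, so the share of cells with a read is given too. Without aged pool 1 no gene passed (446 at an unadjusted p under 0.05), and without young pool 1 only 4 passed. The 21 kept their direction without aged pool 1, each at an unadjusted p under 0.05. They had been chosen on all 4 pools, so this is no independent support.

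The arterial genes present at high levels in both classes give the plainest fold changes. Tm4sf1, which encodes a membrane protein of migrating endothelial cells, stood at 5573, 5125, 4759 and 4470 CPM in the arterial sums of young pools 1 and 2 and aged pools 1 and 2. Its venous sums stood at 639, 731, 647 and 1155 CPM. The lowest arterial pool was therefore far above the highest venous pool, and every arterial cell had a read against 50 of 64 venous cells. The difference was 2.69 ± 0.24 on the log2 scale (SE; edgeR adjusted p = 0.00944).

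Ltbp4 encodes a latent TGF-beta binding protein that is built into elastic fibres. Its arterial sums were 2021, 2431, 3309 and 2438 CPM in the same pool order, and its venous sums 462, 536, 593 and 416 CPM. The venous pools lay close together and well under the arterial ones. The difference was 2.34 ± 0.20 (SE; edgeR adjusted p = 0.00944). Epas1, an oxygen-regulated transcription factor abundant in endothelium, differed less, by 1.50 ± 0.19 (SE; edgeR adjusted p = 0.0412). It was read in nearly all cells of both classes, at 2580 to 3181 CPM in arterial and 716 to 1361 CPM in venous sums. Its locus also holds an overlapping gene on the same strand in GENCODE M21.

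The other 9 arterial genes were close to absent from venous cells. Cdh13, the membrane-anchored T-cadherin, stood at 740, 717, 904 and 782 CPM in the arterial sums and at 0 reads in all 64 venous cells. Taken as independent, these 64 cells allow a share of up to 4.69% of cells with a read. The cells shared pools, which are the replicates, so this limit does not cover the spread between pools. The arterial mean was 2020-fold above a floor of 3 reads per venous sum, which covers counting error only (edgeR adjusted p = 0.0183). Cdh13 was read in 33 of 61 arterial cells, and a cell without a read may still express it. Genes annotated on both strands overlap it. Atp2a3, a calcium pump of the endoplasmic reticulum, stood at 451, 551, 317 and 485 CPM in arterial sums and also had 0 venous reads. Its arterial mean was 1160-fold above the same floor (edgeR adjusted p = 0.0412). It was the most widely read of the 9, in 43 of 61 arterial cells.

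Igfbp4, an insulin-like growth factor binding protein, averaged 843 ± 445 CPM in arterial and 0.493 ± 0.623 CPM in venous sums (edgeR adjusted p = 0.00944). Aged pool 2 was its highest arterial pool, at 1494 CPM against 484 to 701 CPM in the others. Gja4, the gap junction protein connexin 37 of arterial endothelium, averaged 472 ± 280 CPM in arterial sums, with aged pool 1 lowest at 78.3 CPM, and had 4 reads in a single venous cell (edgeR adjusted p = 0.0176). Both genes were thus read in about as many arterial cells, 33 and 30 of 61, with pools that spread widely.

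Fhl1, a LIM domain protein, Scara3, a scavenger receptor, Tspan2, a tetraspanin, Pi16, a secreted peptidase inhibitor, and Cyp1b1, a cytochrome P450 enzyme, each had 1 venous read in all, and passed with edgeR adjusted p of 0.00833 to 0.0461. Their arterial means ran from 166 CPM for Cyp1b1 to 470 CPM for Fhl1. Fhl1 was read in 36, Tspan2 in 27, Scara3 and Cyp1b1 in 15 each and Pi16 in 13 of 61 arterial cells. Each was thus read in only part of the arterial cells, and a cell without a read may still express the gene. For Pi16, 1 cell gave 33.8% of all arterial reads. Tspan2 and Pi16 overlap genes on the opposite strand and Fhl1 one on the same strand, and whether strand was used in counting is not given in the sources used here.

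Of the venous genes, Itm2a, a membrane protein abundant in brain endothelium, had the highest level. Its venous sums were 11622, 12074, 8574 and 7746 CPM in young pools 1 and 2 and aged pools 1 and 2, and its arterial sums 587, 479, 636 and 601 CPM. All 64 venous cells and 42 of 61 arterial cells had a read. The arterial minus venous difference was -4.10 ± 0.22 on the log2 scale (SE; edgeR adjusted p = 0.00242), the smallest p of the 21.

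Transport genes made up part of the set that was higher in venous than in arterial cells. Slc38a5, a glutamine and neutral amino acid transporter, stood at 2362, 1227, 2963 and 3193 CPM in venous sums, in 55 of 64 cells. Arterial cells held 5 reads of it in all (edgeR adjusted p = 0.00833). Slc40a1, the iron exporter ferroportin, averaged 1004 ± 226 CPM in venous and 45.0 ± 31.9 CPM in arterial sums, a difference of -4.69 ± 0.41 (SE; edgeR adjusted p = 0.00944). Neither gene had venous and arterial sums anywhere near each other, but Slc40a1 still had reads in 14 of 61 arterial cells.

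Car4, the carbonic anhydrase of the capillary surface, and Kdr, the main receptor for VEGF, are capillary genes that stood with the venous class. Car4 was at 1504, 1590, 693 and 519 CPM in venous sums and at 33 reads in all arterial cells (edgeR adjusted p = 0.0234). Kdr was at 210, 278, 260 and 182 CPM in venous sums and at 10 reads in all arterial cells (edgeR adjusted p = 0.033). For both, only part of the venous cells had a read: 37 of 64 for Car4 and 28 of 64 for Kdr. Gatm, which makes the precursor of creatine, was more uniform, at 904 ± 80.4 CPM in venous sums, in 55 of 64 cells, against 15 reads in arterial cells (edgeR adjusted p = 0.0183).

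Pglyrp1, a peptidoglycan recognition protein, averaged 1341 ± 315 CPM in venous and 115 ± 72.1 CPM in arterial sums, a difference of -3.80 ± 0.50 (SE; edgeR adjusted p = 0.0461). Tmem252, a transmembrane protein, averaged 1066 ± 466 and 132 ± 52.2 CPM, a difference of -2.99 ± 0.38 (SE; edgeR adjusted p = 0.0412). Tgm2, a transglutaminase that crosslinks proteins, averaged 1854 ± 519 and 562 ± 110 CPM, a difference of -1.71 ± 0.21 (SE; edgeR adjusted p = 0.036); genes on the opposite strand overlap it. These 3 genes were read in 27, 15 and 40 of 61 arterial cells and in 54, 53 and 60 of 64 venous cells.

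**Figure D2:**
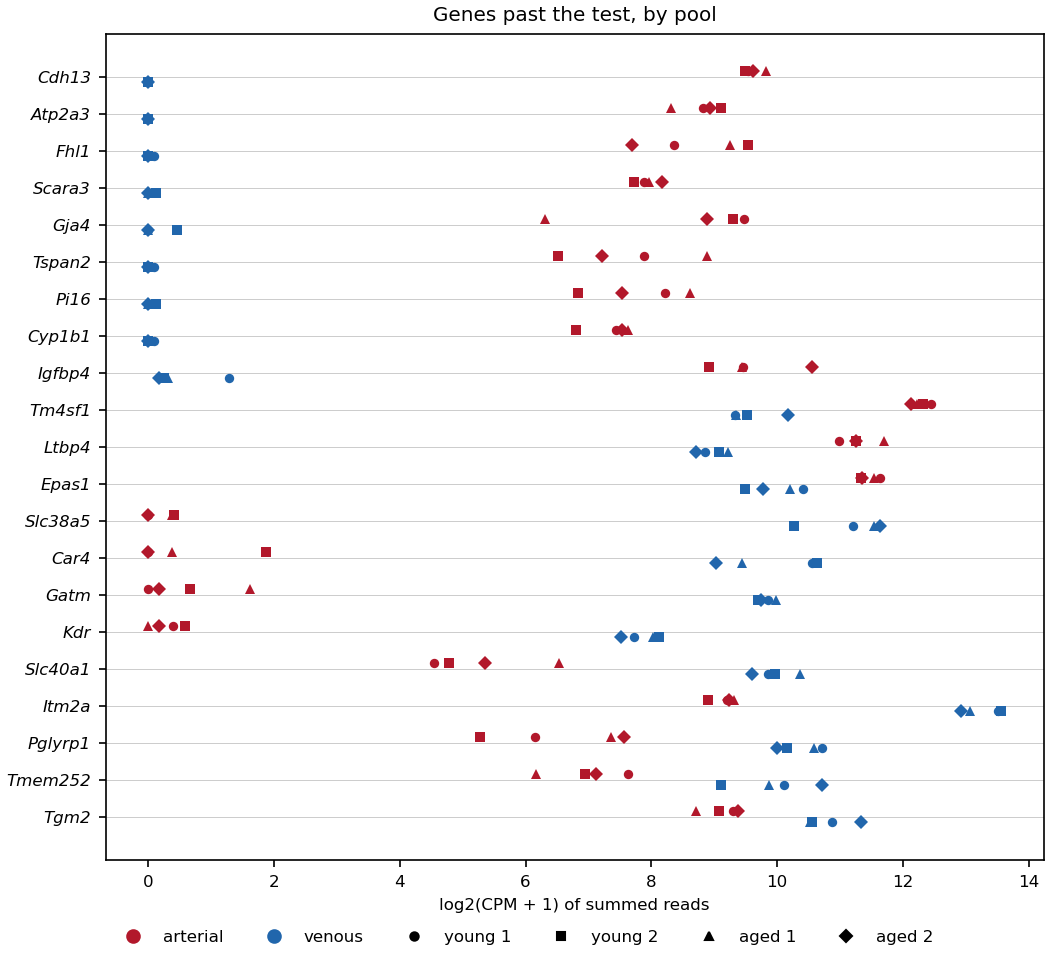
Level of the 21 genes past the test in each of the 8 sums, as log2(CPM + 1) on the horizontal axis; red is arterial, blue is venous, and the marker shape gives the pool. Red and blue points do not overlap for any gene: 12 genes have the red points to the right and 9 the blue.

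In single cells the 21 genes formed a graded but nearly complete separation, given as a description since the genes were chosen on these cells. Of the 12 arterial-high genes an arterial cell had reads of a median of 7 (range 3 to 10) and a venous cell of 3 (range 1 to 6). Of the 9 venous-high genes a venous cell had a median of 7 (range 2 to 9) and an arterial cell of 3 (range 0 to 7). More of the venous-high than of the arterial-high genes were read in 62 of 64 venous cells; the reverse held in 58 of 61 arterial cells.

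Promoter sequences of 2 genes of each direction are printed so that the stretches before the starts of genes with opposite patterns can be read side by side. They were taken from RefSeq on GRCm38.p6, as the 250 bases before the annotated start, in the direction of transcription. None overlaps an annotated exon. Capitals mark the 2 motif matches found, both in Tmem252: ACAATG (Sox proteins) and TGACCT, the reverse complement of the nuclear receptor motif AGGTCA. The windows are chr11:99040994-99041243 on the plus strand for Igfbp4, chr3:57301989-57302238 on the minus strand for Tm4sf1, chr11:84957504-84957753 on the plus strand for Car4 and chr19:24673758-24674007 on the plus strand for Tmem252.
Igfbp4 (arterial): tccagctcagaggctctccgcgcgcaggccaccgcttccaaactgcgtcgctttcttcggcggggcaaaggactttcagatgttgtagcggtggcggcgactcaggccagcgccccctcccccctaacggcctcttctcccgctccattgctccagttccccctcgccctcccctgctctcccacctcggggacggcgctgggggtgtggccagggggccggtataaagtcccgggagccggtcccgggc
Tm4sf1 (arterial): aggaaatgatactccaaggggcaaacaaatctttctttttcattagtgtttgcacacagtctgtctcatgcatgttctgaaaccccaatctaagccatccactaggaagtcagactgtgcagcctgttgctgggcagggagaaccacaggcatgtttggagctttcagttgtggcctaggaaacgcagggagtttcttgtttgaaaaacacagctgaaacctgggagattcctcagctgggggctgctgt
Car4 (venous): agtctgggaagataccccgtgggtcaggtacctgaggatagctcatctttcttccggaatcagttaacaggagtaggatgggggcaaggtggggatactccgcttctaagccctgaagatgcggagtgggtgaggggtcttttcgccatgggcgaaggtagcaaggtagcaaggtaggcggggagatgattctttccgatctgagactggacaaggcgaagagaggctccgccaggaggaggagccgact
Tmem252 (venous): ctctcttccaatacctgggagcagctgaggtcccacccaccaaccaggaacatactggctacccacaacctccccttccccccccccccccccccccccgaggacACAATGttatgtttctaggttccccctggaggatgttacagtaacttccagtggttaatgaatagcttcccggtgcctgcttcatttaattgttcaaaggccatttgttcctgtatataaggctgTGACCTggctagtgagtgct

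The reference held a promoter for 9 of the 12 arterial-high and 7 of the 9 venous-high genes. The motifs, written 5′ to 3′ and searched on both strands, were counted beside all 32851 promoters. The RBPJ core GTGGGAA, through which Notch signals act, was in 5.42% of all promoters, in 1 of 9 arterial-high (Cyp1b1) and 1 of 7 venous-high (Kdr). The nuclear receptor motif AGGTCA was in 14.02% of all, in 0 of 9 and in 2 of 7 (Gatm and Tmem252). The Sp and Klf motif GGGCGG was in 32.7% of all, in 4 of 9 and in 4 of 7. The Sox motif ACAATG was in 10.7% of all, in 0 of 9 and 1 of 7, and the NF-kappa-B motif GGACTTTCC in 0.283% of all, in 0 of 9 and 1 of 7 (Pglyrp1). A match shows only that the letters are there.

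The sums weigh each cell by its reads. An alternative used the mean over cells of log2(CPM + 1) in each pool and class. Cells then weighed the same within a pool and class, and each mean weighed the same whatever its number of cells. Limma with the pool as a term called 288 of 8026 genes, 3.59%, at an adjusted p under 0.05. Of all tested genes, 155 were higher in arterial cells (1.93%) and 133 in venous cells (1.66%). The limma calls included all 21 genes named above. Without young pool 2 limma called 139. The gene groups that follow are described on this scale, where a difference is a difference of mean log2 values per cell and the median over all tested genes was -0.01. The lists were drawn up with earlier results of these data known, so their direction is not independent evidence. Beside the 21 genes above, no list member passed edgeR on the sums.

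Of 30 tested arterial genes outside the defining 6, limma called 19 higher in arterial and 0 in venous cells, with a list median of 2.59. Clu, an extracellular chaperone, had the widest difference of the named members, 11.09 (limma adjusted p = 2.07e-10). Its arterial sums were 4368, 4562, 4191 and 5752 CPM, and its venous sums 0.194, 27.3, 0 and 0 CPM, with reads in 58 of 61 arterial and 6 of 64 venous cells. The edgeR adjusted p was 0.0653, so Clu did not pass on the sums. Gja5, the connexin partner of Gja4, was read in 12 of 61 arterial and 0 of 64 venous cells. Its arterial sums averaged 120 ± 58.2 CPM, 308-fold above the floor of 3 reads per sum (limma adjusted p = 0.025, edgeR adjusted p = 0.316).

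The Notch list gave 4 of 12 members higher in arterial cells and 0 in venous cells, with a list median of 1.92. All 4 were ligands or a target. Jag1, a Notch ligand, had arterial sums of 1412, 897, 1407 and 478 CPM and venous sums of 200, 144, 67.0 and 103 CPM. These did not overlap, and 59 of 61 arterial cells had a read (limma adjusted p = 3.6e-05, edgeR adjusted p = 0.0598). Dll4 averaged 256 ± 161 against 15.3 ± 20.5 CPM and Jag2 196 ± 55.2 against 39.7 ± 41.9 CPM (limma adjusted p = 0.0093 and 0.0339, edgeR adjusted p = 0.82 and 0.979). The target Hey1, a transcriptional repressor, averaged 405 ± 201 and 17.9 ± 29.3 CPM (limma adjusted p = 0.00096, edgeR adjusted p = 0.646). On the sums edgeR called 0 of the 12 Notch genes. The receptors Notch1 and Notch4 differed by 1.87 and 2.26 and did not pass.

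Matrix genes leaned the same way, with 7 of 18 members higher in arterial and 1 in venous cells and a list median of 1.26. Col18a1, a basement membrane collagen, averaged 297 ± 50.3 CPM in arterial sums and had 0 venous reads, at least 763-fold higher (limma adjusted p = 0.000119, edgeR adjusted p = 0.0703). Fbln2, a fibulin, averaged 489 ± 288 against 22.5 ± 45.1 CPM, and all its 1391 venous reads came from 1 cell (limma adjusted p = 0.000103). Bgn, the proteoglycan biglycan, had been listed as a venous gene as well but stood higher in arterial sums, at 1006 ± 457 against 21.7 ± 43.1 CPM (limma adjusted p = 0.00026). The member higher in venous cells was Sparcl1, a secreted protein, named here after its value was seen, at 1592 ± 279 against 384 ± 119 CPM (limma adjusted p = 6.37e-06).

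Of the ephrin and semaphorin genes, which guide vessels and axons, 2 of 18 were higher in arterial and 3 in venous cells. Efnb2, the ephrin of arterial endothelium, averaged 120 ± 36.5 against 4.43 ± 8.78 CPM (limma adjusted p = 0.00473). Sema3c, a secreted semaphorin, went the other way, at 427 ± 145 CPM in venous and 2.99 ± 5.79 CPM in arterial sums (limma adjusted p = 3.7e-05). Nrp2, a semaphorin and VEGF-C receptor of veins, was at 0 reads in 61 arterial cells and was read in 16 venous cells. Its venous sums averaged 98.4 ± 101 CPM, 217-fold above the floor of 3 reads per sum (limma adjusted p = 0.0205). The other called members were Efna1, an ephrin, on the arterial side and Sema6a, a semaphorin, on the venous side, both named after their values were seen. Among the called members the ephrins were thus arterial and the semaphorins venous, while the defining arterial gene Sema3g, also a semaphorin, carries no test. Of the 13 that did not pass, Sema3f and Sema6d differed by 1.84 and 1.22 and Efnb1 by -0.63, and no direction is drawn from them.

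Barrier transporters and capillary genes stood on the venous side. Of 28 transporter genes 0 were higher in arterial and 12 in venous cells, with a list median of -1.72. Of 15 capillary genes 0 and 7 were, with a median of -1.99; the lists share members. Slc16a1, the monocarboxylate transporter, averaged 476 ± 173 CPM in venous and 10.4 ± 19.8 CPM in arterial sums (limma adjusted p = 0.00024). Itih5, a hyaluronan-binding protein, averaged 641 ± 317 and 9.90 ± 11.4 CPM (limma adjusted p = 4.03e-05). Slco2b1, an organic anion transporter, averaged 553 ± 198 and 53.3 ± 106 CPM, with nearly all arterial reads in young pool 2 (limma adjusted p = 0.000123). Slc2a1, the glucose transporter of the barrier, named after its value was seen, did not pass, at 10465 ± 2430 CPM in venous and 7621 ± 1475 CPM in arterial sums.

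Of 19 other venous genes 8 were higher in venous and 1, Bgn, in arterial cells, with a list median of -1.68. Lbp, which binds lipopolysaccharide, averaged 105 ± 26.2 CPM in venous sums and had 1 arterial read (limma adjusted p = 0.0325). Inflammation genes gave 2 of 20 higher in venous and 1 in arterial cells. Socs3, a feedback inhibitor of cytokine signalling, was at 27.0, 207, 223 and 255 CPM in venous sums and at 0 reads in arterial cells, at least 393-fold higher (limma adjusted p = 0.00799). Ptgs2, the inducible cyclooxygenase, stood at 63.7 and 39.6 CPM in young and 331 and 897 CPM in aged venous sums, against 0 to 46.0 CPM in arterial sums, and the groups overlapped (limma adjusted p = 0.0137). Tnfaip2, a TNF-induced protein, was the arterial one, at 114 ± 105 CPM against 9 venous reads in 1 cell (limma adjusted p = 0.0363).

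Immediate early and heat shock genes, which also respond to tissue dissociation, gave 3 of 22 higher in venous and 1 in arterial cells. Ier3, an early response gene, averaged 1127 ± 623 CPM in venous and 74.5 ± 46.6 CPM in arterial sums (limma adjusted p = 2.4e-05). Cyr61, a secreted matrix protein, was at 408 ± 518 CPM in arterial and 187 ± 354 CPM in venous sums, which overlapped (limma adjusted p = 0.0341). The part of dissociation in these differences was not tested.

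Genes of vessel tone and flow split evenly, with 3 of 17 higher in each class. Edn1, endothelin, Trpv4, a calcium channel, and Ptgis, the prostacyclin synthase, were the arterial ones, at 586 ± 286 against 163 ± 211 CPM, 202 ± 40.9 against 29.4 ± 21.9 CPM and 369 ± 165 against 70.9 ± 23.7 CPM (limma adjusted p = 0.000928, 0.0115 and 0.009). Edn1 was higher in arterial sums in 3 of 4 pools, with 384 against 461 CPM in aged pool 2, and its groups overlapped (edgeR adjusted p = 0.982). Calcrl, the receptor for adrenomedullin and CGRP, was among the venous ones, at 180 ± 78.8 against 26.5 ± 25.0 CPM (limma adjusted p = 0.0203). Thbd, thrombomodulin, was the venous member of the coagulation list, at 947 ± 328 against 326 ± 88.7 CPM (limma adjusted p = 0.014), and Mmrn2, a multimerin of the vessel surface, the arterial one, at 1033 ± 151 against 362 ± 287 CPM (limma adjusted p = 0.00815).

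Growth factor and barrier induction lists were mixed. TGF-beta and BMP genes gave 4 of 15 higher in arterial cells and 0 in venous cells, among them Smad6, an inhibitor of BMP signalling, at 148 ± 59.4 against 11.1 ± 21.4 CPM (limma adjusted p = 0.00155). Wnt and barrier induction genes gave 3 of 21 and 1, with Reck, a membrane cofactor of Wnt7 signals, at 368 ± 153 against 71.2 ± 81.9 CPM, with overlapping sums (limma adjusted p = 0.0064). VEGF and angiopoietin genes gave 1 of 15 and 2, with the ligand Vegfc on the arterial side, at 241 ± 65.3 against 70.7 ± 81.5 CPM, also overlapping (limma adjusted p = 0.0238). Junction genes gave 3 of 18 and 0, Gja4, Gja5 and Cgnl1. The arrest and senescence list gave 3 of 8 and 0, and its 3 members were the growth factor binding proteins Igfbp3, whose sums overlapped, Igfbp4 and Igfbp7; its cell cycle inhibitors Cdkn1a, Cdkn1b and Cdkn2b differed by 0.91, -0.37 and 0.19 and did not pass.

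Endothelial genes listed for all segments were not equal either, with 2 of 20 higher in arterial and 4 in venous cells and a list median of 0.06. Emcn, the sialomucin endomucin, averaged 491 ± 159 CPM in venous and 122 ± 82.3 CPM in arterial sums (limma adjusted p = 0.00145). Slco1a4, an organic anion transporter, averaged 2516 ± 613 and 718 ± 338 CPM (limma adjusted p = 0.000336). No member passed in the class I antigen (20 tested), interferon (27), mitochondrially encoded (13), sterol (16), cell cycle (3) or class II antigen (1) lists.

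Some genes taken as markers of other cells differed between the classes as well. Apod, listed for fibroblasts, averaged 865 ± 338 CPM in venous and 10.2 ± 20.2 CPM in arterial sums, in 44 of 64 venous cells (limma adjusted p = 8.13e-06). The other fibroblast genes in the table, Col3a1 and Igf2, had no venous read. Stmn2, listed for neurons and for arteries, averaged 843 ± 263 CPM in arterial and 22.2 ± 44.3 CPM in venous sums, in 51 of 61 arterial cells (limma adjusted p = 3.95e-07); it was the sole member of the neuron list in the table. Mylk, a kinase of smooth muscle contraction, averaged 173 ± 114 and 41.4 ± 15.7 CPM, higher in arterial sums in 3 of 4 pools and overlapping (limma adjusted p = 0.00259).

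**Figure D3:**
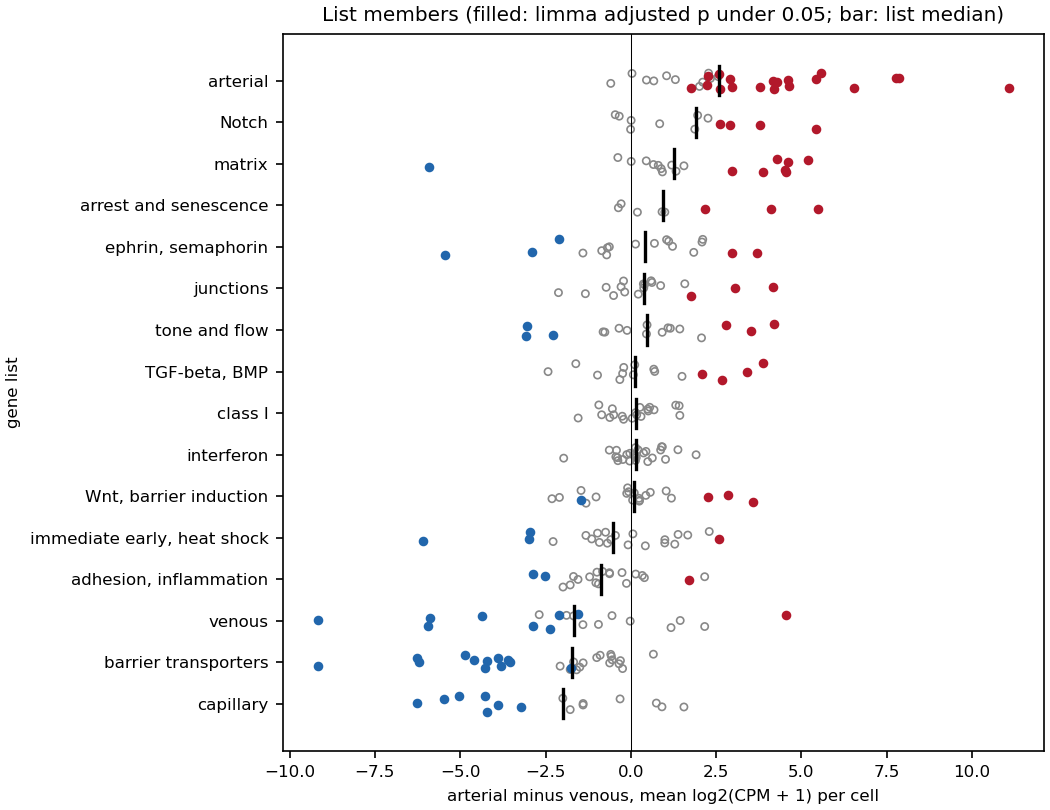
Difference between arterial and venous cells for each tested member of 16 gene lists (horizontal axis, mean log2(CPM + 1) per cell, arterial minus venous); filled points passed limma at an adjusted p under 0.05 (red arterial, blue venous), open points did not, and black bars are list medians. The arterial list has the highest median, 2.59, and the capillary list the lowest, -1.99.

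Vcam1, the leukocyte adhesion molecule in the study's title, stood higher in arterial sums of each pool but did not pass the test. Its arterial sums were 1358 and 1392 CPM in young pools 1 and 2, and 2419 and 3476 CPM in aged pools 1 and 2. Its venous sums were 404 and 173 CPM in the young and 2317 and 1697 CPM in the aged. Arterial exceeded venous in 4 of 4 pools, by little in aged pool 1, and the groups overlapped because the aged venous pools stood above the young arterial ones. The difference was 1.46 ± 0.47 on the log2 scale and did not pass (SE; edgeR adjusted p = 0.487; limma adjusted p = 0.167). Of the alternatives run on this level only DESeq2 put it past the threshold, at 1.47 (DESeq2 adjusted p = 0.00421); the others gave adjusted p of 0.167 to 1, and DESeq2 called 921 genes in all.

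The share of cells with a Vcam1 read was 66.7, 80.0, 66.7 and 94.4% in arterial cells of young pools 1 and 2 and aged pools 1 and 2. It was 42.9, 31.6, 75.0 and 75.0% in venous cells. The share was higher in arterial cells in 3 of 4 pools, with means of 76.9 ± 13.3% and 56.1 ± 22.3% and a mean difference of 20.8 points (pool differences from -8.33 to 48.4; exact permutation within pools, two-sided p = 0.25, adjusted over 3 comparisons 0.75, where 0.13 is the smallest p that 4 pools allow). With each cell thinned to 100000 reads the difference was 20.4 points. A gene on the opposite strand overlaps Vcam1, and a cell without a read may still express it. With all pools summed, Vcam1 was at 1959, 819 and 696 CPM in pos-gate arterial, venous and unclassed cells. In the neg gate the same classes were at 145, 0.245 and 0.144 CPM. All cells compared here may thus have been sorted on the product of this gene, which was not tested.

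**Figure D4:**
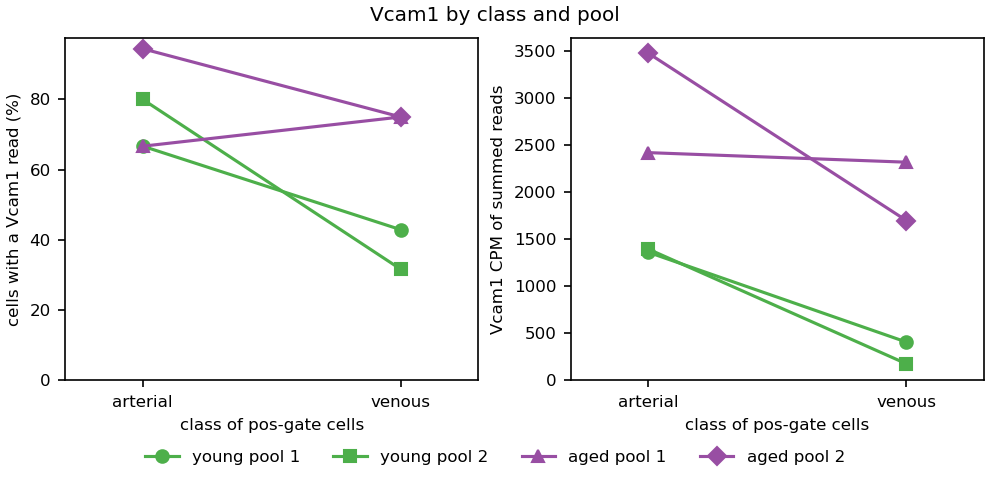
Share of cells with a Vcam1 read (left, %) and Vcam1 level of the summed reads (right, CPM) in arterial and venous pos-gate cells; each line joins the classes of 1 pool, green for young and purple for aged. The share falls from arterial to venous cells in 3 pools and is higher in venous cells in aged pool 1, at 75.0 against 66.7%.

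Whether the arterial-venous difference itself changes with age was tested as an interaction in edgeR, with 2 pools per age. This left 2 residual degrees of freedom, so little could pass, and the absence of calls does not show that age has no part. Of 8026 genes 0 passed (0%), and 133 had an unadjusted p under 0.05. The genes with the smallest p were Fmo1, Ccnd2 and Alpl, each at an adjusted p of 1. Fmo1, a flavin monooxygenase, had 2 young arterial levels near 0, 0.105 and 0.0834 CPM, and aged ones of 85.0 and 45.5 CPM, against venous levels of 334 and 374 CPM in the young and 720 and 645 CPM in the aged. Ccnd2, a cyclin, was at 675 to 1044 CPM in all arterial sums and at 51.0 and 18.8 CPM in young and 0 in both aged venous sums. Alpl, alkaline phosphatase, was at 1228 to 1703 CPM in arterial sums, and in venous sums at 0.0648 and 0.185 CPM in the young and 12.2 and 153 CPM in the aged. In these 3 genes the low class moved between near-absent and low, and 1 cell gave 95.7% of the venous Alpl reads. For Vcam1 the interaction was -1.83 ± 0.60 (SE; edgeR adjusted p = 1).

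Cells of the neg gate, which had no part in the choice of the 21 genes, met the same rules in 17 cases, 10 arterial and 7 venous. Only young pool 1 and aged pool 1 held both classes, and no test was made. With all pools summed, 10 of the 12 arterial-high genes and 6 of the 9 venous-high genes had the same order as in the pos gate. The arterial-high genes without it were Tspan2, at 0.173 against 43.9 CPM, and Cyp1b1, at 0.519 against 2.70 CPM, and Scara3 kept it through 1 cell at 1.38 CPM. Pi16 also kept it through 1 cell, and Fhl1 stood at 1.38 against 0 CPM. Kdr, counted among the venous-high genes with the same order, stood at 247 CPM in neg arterial and 268 CPM in neg venous cells. No such count was made over all tested genes, so these counts are a description only. Tm4sf1 was at 2261 CPM in neg arterial and 578 CPM in neg venous cells, and Itm2a at 6516 and 15277 CPM. Slc38a5, Tmem252 and Tgm2 were the venous-high genes without that order: Slc38a5 was at 325 CPM in neg arterial and 317 CPM in neg venous cells. Neg arterial cells held transcripts that pos arterial cells nearly lacked, with Car4 at 586 CPM and Kdr at 247 CPM, and neg venous cells held Car4 at 3929 CPM. The 118 neg-gate cells of neither class averaged 2428 ± 465 CPM of Car4 and 11827 ± 1679 CPM of Itm2a over the 4 pools. With all pools summed, Car4, Itm2a, Slc40a1, Pglyrp1, Gatm and Kdr stood at 2542, 12033, 1350, 1768, 930 and 591 CPM in these cells. In pos venous cells they stood at 1229, 10581, 955, 1368, 890 and 228 CPM. Slc38a5, Tmem252 and Tgm2 went the other way, at 396, 168 and 293 against 2283, 1049 and 1869 CPM. The 9 genes are thus venous-high against arterial cells, and not all are particular to venous cells.

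**Figure D5:**
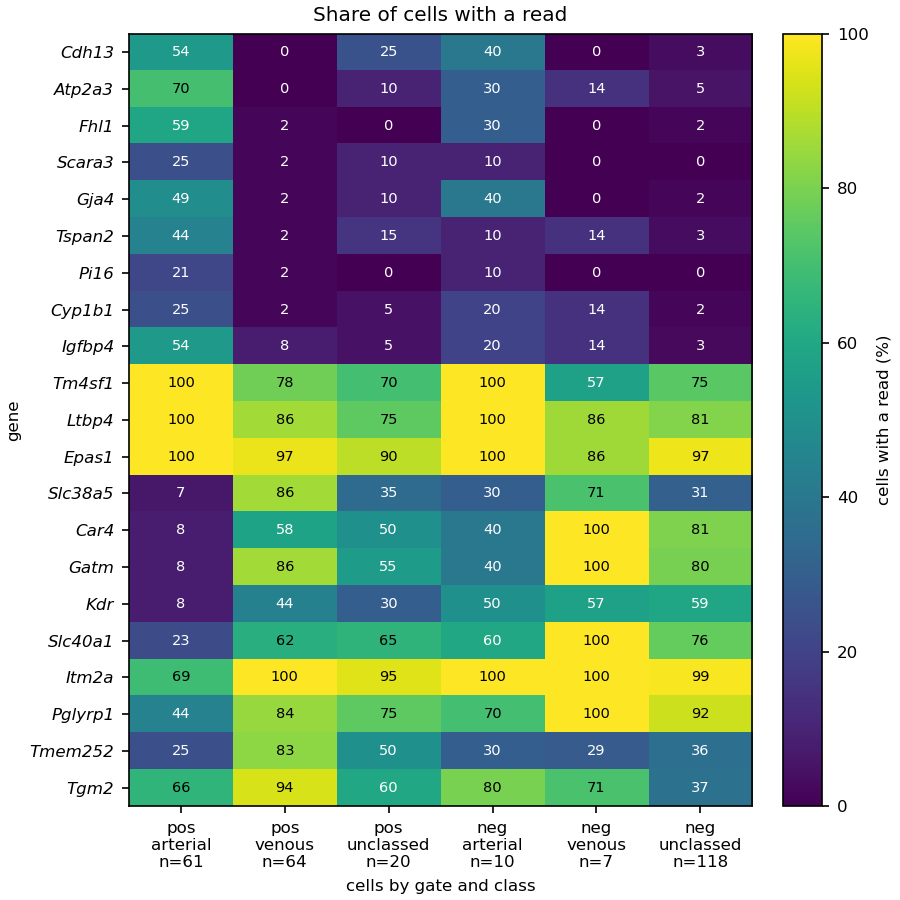
Share of cells with a read (%, colour and number) for the 21 genes (rows) in pos-gate and neg-gate cells split by the same arterial and venous rules; n is the number of cells in each column. In the pos gate Car4 was read in 58% of venous and 8% of arterial cells, and in the neg gate in all 7 venous cells, 40% of arterial cells and 81% of unclassed cells.

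Genes outside the 12 defining ones also varied inside the classes. These splits were chosen after their values were seen and are given with no test. Venous cells with a Car4 read (37) had the organic anion transporter Slc22a8 in 32 and Kdr in 19, and those without (27) in 12 and 9; both shares were higher beside Car4 in 4 of 4 pools. The order was the reverse for Ptgs2, with 12 of 37 against 15 of 27, and for the venous receptor Nrp2, with 4 against 12. Ptgs2 was lower beside Car4 in 4 of 4 pools and Nrp2 in 3. Venous cells with Car4 also had more detected genes, a median of 2200 against 1807.

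Among arterial cells, 13 had a Pi16 read and 48 did not, with medians of 1978 and 1972 detected genes. Tspan2 was read in 3 of the 13 and in 24 of the 48, lower beside Pi16 in 4 of 4 pools. Cdh13 was read in 11 of the 13 and in 22 of the 48, higher beside Pi16 in 4 of 4 pools.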

How the data were processed

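The authors deposited 1 table of whole-number read counts, 11463 genes in rows and 316 cells in columns; each sequenced sample is 1 cell. Per the submitters' processing notes, Bowtie 0.12.2 was used; for the counting tool, strand and filters, nothing is given in the sources used here. No gene in the table has reads in fewer than 5 cells. Members and gene lists were chosen with earlier results of these data known.

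Classed cells had 37309 to 1199344 reads (median 553893). Reads carry no molecular identifiers, so floors (3 reads per sum) cover counting error only. No doublet caller was run. CPM was computed here from the deposited counts. Counts were summed per pool and class (6 to 25 cells); edgeR 4.0.16 (R 4.3.3; filterByExpr, TMM, quasi-likelihood test, pool as block, defining genes left out) was the main test, with 3 residual degrees of freedom. CPM of a sum uses its TMM-scaled size, with the pool as the replicate. The block takes out differences between pools. The p-values therefore rest on how the arterial minus venous difference varies over the 4 pools. The alternative by limma 3.58.1 used the mean over cells of log2(CPM + 1). DESeq2 1.42.0, RLE size factors, no low-count filter, thinning to 100000 reads (121 of 125 cells kept), stricter classes, 50 CPM and leaving out each pool were also tried. Tests were checked on simulated data.

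Pools pair the classes because both come from the same 4 mice; deviations of arterial and venous sums within a pool correlated at 0.0282, 0.0269, 0.0205 and -0.00871. Without the block 88 genes passed in place of 21. Named genes were up to 12 per direction with the largest log2 fold change that passed, had a mean over the sums of 32 CPM or more and had 1 direction in 4 of 4 pools, plus Vcam1, up to 4 members per list by largest absolute fold, and the 3 smallest p of the interaction. Symbols were matched to GENCODE M21 (GRCm38), 11224 of 11463.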

Additional observations from a re-analysis of the deposited data

Results flagged for a closer look

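Groups of 4 pools were examined for the 21 named genes and Vcam1 where the sums held at least 12 reads, and for 3 measures per cell (Vcam1 share, detected genes and reads). In 2 of these 40 groups 1 pool lay far from the other 3; chance alone gives about 1 such group in 20. Igfbp4 in venous sums stood at 1.43 CPM in young pool 1 and at 0.122 to 0.239 CPM in the other pools. Car4 in arterial sums stood at 2.67 CPM in young pool 2 and at 0 to 0.293 CPM in the other pools. Both values are in the class where the gene was nearly absent, and 1 cell gave 84.6% of the venous Igfbp4 reads and 48.5% of the arterial Car4 reads.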

How the results depend on the processing

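The main count was 21 genes and moved widely. It was 53 with no low-count filter, 57 with thinned cells, 40 with stricter classes and 36 with robust dispersion. With the defining genes kept in the test 32 passed, by limma 288 and by DESeq2 921. DESeq2 also called many unchanged genes in simulated sums, which held no pool effect on any gene, unlike the real sums. With no replicate block 88 passed, and the pairing changed the call of none of the 21. Leaving out 1 pool at a time gave 0 to 32, with 0 without aged pool 1, 4 without young pool 1 and 32 without young pool 2; 3 pools leave fewer degrees of freedom. Of 334 values of the 21 genes under the alternatives, all kept their direction, 274 passed again and 60 did not. The alternatives drew on the same data in which the 21 were chosen. Stricter classes asked for 4 arterial or 3 venous genes and at most 1 of the other class. There 15 of the 21 passed again. Tmem252, Kdr, Cyp1b1 and Tspan2 did not (edgeR adjusted p = 0.413, 0.121, 0.0844 and 0.0533), and Scara3 and Pi16 had no value. Limma gave 139 to 322 genes with 1 pool left out, 139 without young pool 2. The age interaction also gave 0 genes with RLE size factors, 50 CPM, stricter classes or thinned cells. So few pools per age leave so few degrees of freedom that little could pass in any of these. The arterial minus venous difference in detected genes per cell, 20.8, became -34.0 with thinned cells and -142 with stricter classes, and ran from -128 (without aged pool 1) to 84.7 with 1 pool left out. That in median reads per cell, -31355, was -168437 with stricter classes and ran from -99971 to 55005 (without aged pool 2) with 1 pool left out. The cause was not tested. Vcam1's share kept its direction, 11.6 to 30.6 points with 1 pool left out.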
